A study of Mus musculus with 116 samples.

Results

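Tmtc2, Ikzf2 and Tnfsf11 were followed in 3 cell lines through the loss and any return of their RNA after IL-3 was taken away from mouse FDB1 cells. A probe was taken where the platform annotation, or an older alias, gave 1 of these symbols. That found 3 probes, 1 per gene, among 21797 tested probes and 15097 named genes. The genes were chosen because they fell by 72 hours in GM-CSF and in FI-Delta cells and because V449E cells came back, though Ikzf2 moved little in V449E cells. Every change from 0 hours within a line and every comparison at 72 hours is therefore given as a value with its standard error (SE) and without a test. The comparisons of lines at 0, 6, 12, 24 and 48 hours did not themselves set the choice and were tested. They come from the same data, however. The choice favours a late difference between V449E and FI-Delta cells, and likeness of FI-Delta and GM-CSF cells. Those p-values are therefore descriptions and not independent support, and a pass at a late time was in part set by the choice.

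FDB1 is a myeloid cell line from mouse bone marrow that divides in interleukin-3 (IL-3) and matures in granulocyte-macrophage colony-stimulating factor (GM-CSF). All cells were grown in 500 U/mL IL-3 with 10% fetal calf serum and washed at 0 hours. Parental FDB1 cells were then moved to 500 U/mL GM-CSF. FDB1 cells that express V449E or FI-Delta, mutant forms of a receptor, were left without any factor; both are activated forms of the beta chain that the IL-3 and GM-CSF receptors share. Cells were harvested for RNA at 0, 6, 12 and 24 hours and again at 48 and 72 hours, which gives 18 conditions with 2 replicates each, because parental cells at 0 hours start the GM-CSF series. Whether a mutant line is a single clone, how the receptors are driven and whether replicates were separate cultures is not given in the sources used here, so a p-value here covers the spread between these RNAs, which may be technical.

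The 36 RNAs were compared on 116 spotted 2-colour arrays, in 58 dye-swap pairs, and each RNA was given a log2 level, set against the average of all RNAs with the same replicate number. The sources used here do not state which dye is the numerator of the deposited ratios, and Cy5 was taken as the likely one. Were they the other way round, every sign would turn, each loss would be a gain and each highest level a lowest one, while sizes, SEs and p-values would stay. A fold further rests on the log base being 2. The levels are relative, so they do not show whether a gene or a cell marker is present, and levels of different genes cannot be ranked. In RNA from whole cultures, fewer cells of a type and less RNA per cell cannot be told apart. Print run 2 held 26 arrays, among them every replicate 2 array with a GM-CSF RNA. Every array that compares V449E with FI-Delta cells, or a time with 0 hours in either of these lines, is of print run 1. The array medians ran from -0.02 to 0.01.

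The 3 genes encode proteins of unrelated kinds. Tmtc2 is a membrane protein of the endoplasmic reticulum with tetratricopeptide repeats, of the small TMTC family that is linked to O-mannosylation of cadherins. Ikzf2 encodes Helios, a zinc finger transcription factor of the Ikaros family, known from regulatory T cells and blood stem and progenitor cells. Tnfsf11 encodes RANKL, a ligand of the tumour necrosis factor family that drives osteoclast formation through its receptor RANK (Tnfrsf11a) and is bound by the decoy receptor osteoprotegerin (Tnfrsf11b). RANKL is best known from osteoblasts, osteocytes, stromal cells and T cells.

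On the mouse assembly GRCm38.p6 (RefSeq), Tmtc2 lies at chr10:105187663-105574479, Ikzf2 at chr1:69531207-69687351 and Tnfsf11 at chr14:78277446-78308043. Their probes were CGEN_MOUSE_EXT_3107128_1, CGEN_MOUSE_3001505_1 and CGEN_MOUSE_3005607_1. The position of a probe within its gene is not given in the sources used here. RefSeq promoters were matched for 2 of the 3 genes, and the 250 bases before each start are shown because both genes lost RNA in the same 2 lines. They are chr10:105574480-105574729 and chr14:78308044-78308293, both on the minus strand, written 5′ to 3′, with capitals for a match to a searched motif.

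Tmtc2: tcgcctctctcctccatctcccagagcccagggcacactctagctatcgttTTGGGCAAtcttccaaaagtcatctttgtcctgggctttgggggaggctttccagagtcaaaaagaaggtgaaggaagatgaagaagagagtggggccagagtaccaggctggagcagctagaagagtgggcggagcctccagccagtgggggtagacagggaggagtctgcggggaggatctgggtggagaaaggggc

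Tnfsf11: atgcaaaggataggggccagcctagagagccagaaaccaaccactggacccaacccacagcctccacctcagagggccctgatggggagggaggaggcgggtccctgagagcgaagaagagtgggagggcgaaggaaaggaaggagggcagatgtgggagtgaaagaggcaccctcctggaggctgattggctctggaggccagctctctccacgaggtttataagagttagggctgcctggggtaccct

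Of 8 motifs searched on both strands, 1 was found in the Tmtc2 window and 0 in the Tnfsf11 window. The match was TTGGGCAA, which fits the C/EBP letters TTGCNNAA on the minus strand of the window, 199 to 192 bases before the start. Among 32851 RefSeq promoters, 9.56% held this C/EBP motif in the same window. The letters of the other searched motifs were TTCNNNGAA for STAT5 (in 7.02% of promoters), AGATAA for GATA factors (9.99%) and TGGGAA for Ikaros (21.6%). GAGGAAGT for PU.1 was in 2.44% of promoters, TGTGGT for RUNX in 14.0%, CACGTG for the E-box in 6.02% and the NF-kB motif in 0.356%. A match describes the letters of these windows and is not a measured site.

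At 0 hours, in IL-3, no difference between the 3 lines passed the test for any of the genes. Tmtc2 was at 1.57 and 1.50 in the 2 replicates of parental cells, 1.87 and 1.85 in V449E cells and 1.29 and 1.63 in FI-Delta cells. Ikzf2 was at 0.40 and 0.05 in parental cells, 0.80 and 0.46 in V449E cells and 0.47 and 0.32 in FI-Delta cells. Tnfsf11 was at 1.07 and 0.24 in parental cells, 1.31 and 0.93 in V449E cells and 0.54 and 0.45 in FI-Delta cells. For each gene the V449E mean was the highest of the 3. Tmtc2 and Tnfsf11 of the FI-Delta replicates did not reach the V449E replicates, and the Ikzf2 replicates of these 2 lines overlapped. In limma's moderated test with Benjamini-Hochberg adjustment over all probes, 0 of 9 differences between lines at 0 hours passed 0.05, and 1 of 9 had an unadjusted p under 0.05. Over all probes 0.734% passed for V449E against parental cells, 0.106% for FI-Delta against parental cells and 0.225% for FI-Delta against V449E cells. That 1 difference was Ikzf2 in V449E against parental cells, at 0.40 (SE 0.14, adjusted p = 0.280, 95% interval 0.11 to 0.70), and all 8 arrays that compare these RNAs directly had it higher in V449E cells. For Tmtc2 the V449E minus parental difference was 0.32 (SE 0.31) with a 95% interval of -0.31 to 0.96, and for Tnfsf11 it was 0.46 (SE 0.44) with an interval of -0.44 to 1.37.

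**Figure D1:**
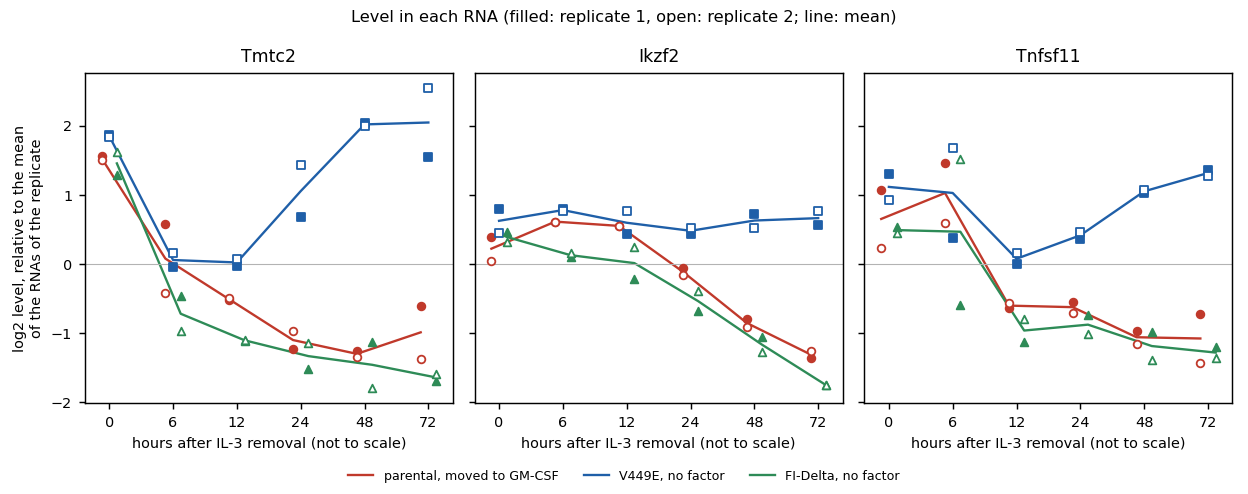
Log2 level of Tmtc2, Ikzf2 and Tnfsf11 (relative to the mean of the RNAs of the replicate) against hours after IL-3 removal, spaced evenly and not to scale. Points are single RNAs (filled for replicate 1, open for replicate 2), lines join the means of 2, and parental cells in IL-3 give the 0-hour points of the GM-CSF line; Tmtc2 ended between 1.55 and 2.55 in V449E cells and between -1.69 and -0.61 in the other 2 lines.

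Tmtc2 was already low at 6 hours in all 3 lines. In parental cells moved to GM-CSF its level was 0.58 and -0.42 at 6 hours, -0.52 and -0.50 at 12 hours, -1.23 and -0.97 at 24 hours, -1.25 and -1.34 at 48 hours, then -0.61 and -1.37 at 72 hours. In FI-Delta cells it was -0.47 and -0.97 at 6 hours, -1.11 and -1.10 at 12 hours, -1.51 and -1.15 at 24 hours, -1.12 and -1.79 at 48 hours, then -1.69 and -1.59 at 72 hours. All 20 RNAs of these 2 lines after 0 hours, from -1.79 to 0.58, lay below all 6 RNAs at 0 hours, from 1.29 to 1.87. The change from 0 hours in GM-CSF was -1.46 at 6 hours, -2.04 at 12 hours, -2.63 at 24 hours, -2.83 at 48 hours and -2.52 at 72 hours (SE 0.31 each), or 5.75-fold lower at the end. In FI-Delta cells it was -2.18, -2.56, -2.79, -2.92 and -3.10 (SE 0.31 each) at the same 5 times, or 8.57-fold lower at the end. At 6 hours the change was 70.2% of that at 72 hours in FI-Delta cells and 57.7% in GM-CSF cells, and at 12 hours 82.6% and 81.0%. The 6-hour change in GM-CSF was -1.98 without replicate 1 and -0.93 without replicate 2 of that time, so the lines cannot be ordered by these shares. Between 24 and 72 hours the values moved by less than 2 SE in both lines.

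V449E cells lost Tmtc2 as early, and regained it between 12 and 48 hours. The level was -0.04 and 0.16 at 6 hours, -0.02 and 0.07 at 12 hours, 0.68 and 1.44 at 24 hours, 2.04 and 2.00 at 48 hours, then 1.55 and 2.55 at 72 hours. The 4 RNAs at 6 and 12 hours lay apart from the 4 at 48 and 72 hours, and the 24-hour RNAs lay between the 2 groups. The change from 0 hours was -1.80 at 6 hours and -1.83 at 12 hours, or 3.48-fold and 3.56-fold lower. It was -0.80 at 24 hours, 0.17 at 48 hours and 0.19 at 72 hours (SE 0.31 each). The 95% interval at 72 hours ran from -0.44 to 0.83, so a remaining difference within that range is not detectable with 2 replicates. The 2 replicates at 24 hours were at -1.19 and -0.41 against their own 0 hours, and the 4 arrays that compare these RNAs directly ran from -1.21 to -0.17, all below 0.

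**Figure D2:**
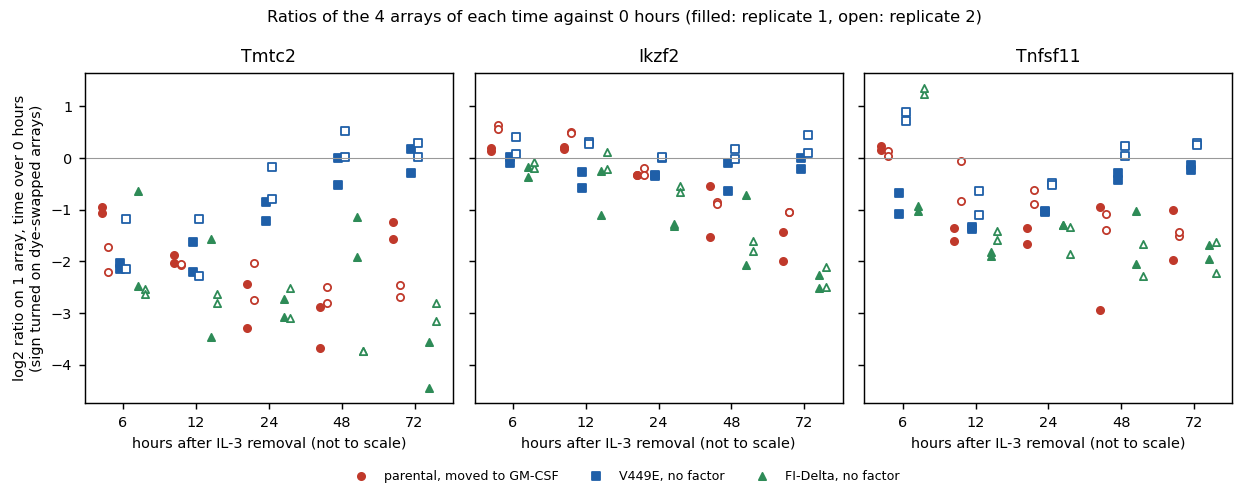
Log2 ratio on each of the 4 arrays that compare a time directly with 0 hours of the same line, by hours after IL-3 removal (spaced evenly), with the sign turned on dye-swapped arrays so that values below 0 mean less RNA at the later time. Filled points are replicate 1 and open points replicate 2; all arrays of Tmtc2 lay below 0 in GM-CSF and FI-Delta cells, and in V449E cells they lay below 0 up to 24 hours and from -0.51 to 0.52 at 48 hours.

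Ikzf2 was lost late and gradually in GM-CSF and FI-Delta cells, and its RNA moved little in V449E cells. In GM-CSF its level was 0.62 and 0.61 at 6 hours, 0.56 and 0.55 at 12 hours, -0.06 and -0.16 at 24 hours, -0.79 and -0.91 at 48 hours, then -1.35 and -1.26 at 72 hours. In FI-Delta cells it was 0.10 and 0.16 at 6 hours, -0.22 and 0.25 at 12 hours, -0.68 and -0.39 at 24 hours, -1.06 and -1.27 at 48 hours, then -1.75 and -1.75 at 72 hours. In GM-CSF the 4 RNAs at 6 and 12 hours lay above both parental RNAs, and the later times went down in order, with no overlap between neighbouring times from 12 hours on. In FI-Delta cells the replicates of 6 and 12 hours overlapped, and those of later neighbouring times did not. Against 0 hours, Ikzf2 in GM-CSF was at 0.39 at 6 hours, 0.33 at 12 hours, -0.33 at 24 hours, -1.07 at 48 hours and -1.53 at 72 hours (SE 0.14 each), the last being 2.89-fold. In FI-Delta cells it was -0.26, -0.38, -0.93, -1.56 and -2.14 (SE 0.14 each) at the same times, the last being 4.42-fold. At 24 hours the change was 21.8% of that at 72 hours in GM-CSF and 43.4% in FI-Delta cells, and at 48 hours 70.2% and 72.8%. The 24-hour change in GM-CSF was -0.15 without parental replicate 1 and -0.52 without parental replicate 2.

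In V449E cells all 12 RNAs of Ikzf2 lay between 0.44 and 0.80. The replicates were at 0.80 and 0.76 at 6 hours, 0.44 and 0.76 at 12 hours, 0.44 and 0.53 at 24 hours, 0.73 and 0.53 at 48 hours, then 0.56 and 0.77 at 72 hours. No time stood apart from the 0-hour values of 0.80 and 0.46. The change from 0 hours was 0.16 at 6 hours, -0.03 at 12 hours, -0.14 at 24 hours, 0.00 at 48 hours and 0.04 at 72 hours (SE 0.14 each). The lowest bound of the 95% intervals was -0.44, at 24 hours. The loss and return seen for Tmtc2 in this line was thus not seen for Ikzf2 within these intervals.

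Tnfsf11 was low from 12 hours on in GM-CSF and FI-Delta cells. At 6 hours its replicates disagreed in FI-Delta cells, so the start of the fall could not be placed there. In GM-CSF no fall was seen at 6 hours, when the 4 direct arrays against 0 hours ran from 0.05 to 0.22. In GM-CSF its level was 1.46 and 0.59 at 6 hours, -0.64 and -0.57 at 12 hours, -0.54 and -0.70 at 24 hours, -0.97 and -1.15 at 48 hours, then -0.72 and -1.43 at 72 hours. In FI-Delta cells it was -0.58 and 1.52 at 6 hours, -1.13 and -0.79 at 12 hours, -0.74 and -1.01 at 24 hours, -0.98 and -1.39 at 48 hours, then -1.21 and -1.35 at 72 hours. From 12 hours on, the 16 RNAs of both lines lay between -1.43 and -0.54, below the 6 RNAs at 0 hours, which ran from 0.24 to 1.31. Against 0 hours, Tnfsf11 in GM-CSF was at 0.38 at 6 hours, -1.25 at 12 hours, -1.28 at 24 hours, -1.71 at 48 hours and -1.73 at 72 hours (SE 0.44 each), the last being 3.32-fold. In FI-Delta cells it was -0.02, -1.45, -1.37, -1.68 and -1.77 (SE 0.44 each), the last being 3.42-fold. At 12 hours the change was 72.5% of that at 72 hours in GM-CSF and 82.0% in FI-Delta cells. The 12-hour change in GM-CSF was -0.81 without parental replicate 1 and -1.70 without parental replicate 2.

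In V449E cells Tnfsf11 was lowest at 12 hours and was near its starting level at 48 hours. It was at 0.37 and 1.69 at 6 hours, 0.00 and 0.16 at 12 hours, 0.37 and 0.47 at 24 hours, 1.03 and 1.08 at 48 hours, then 1.36 and 1.28 at 72 hours. The RNAs at 12 and 24 hours lay below both 0-hour RNAs, and those at 48 and 72 hours reached them. The change from 0 hours was -0.09 at 6 hours, -1.04 at 12 hours, -0.70 at 24 hours, -0.06 at 48 hours and 0.20 at 72 hours (SE 0.44 each). At 12 hours the fall was 2.06-fold, with a 95% interval of -1.95 to -0.13 on the log2 scale.

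The 6-hour spread of Tnfsf11 lay between RNAs and not between dyes. The FI-Delta replicates differed by 2.11, the widest gap of any condition for the 3 genes. Against 0 hours, the replicate 1 arrays of FI-Delta cells read -0.92 and -1.03, and the replicate 2 arrays read 1.24 and 1.35. In V449E cells they read -0.68 and -1.08 in replicate 1 and 0.72 and 0.89 in replicate 2. In GM-CSF all 4 lay between 0.05 and 0.22. The largest gaps of the other genes were 1.00 for Tmtc2, in GM-CSF at 6 hours, and 0.47 for Ikzf2, in FI-Delta cells at 12 hours. Only 0.0413% of all probes had a larger SE of a difference than Tnfsf11, 0.262% a larger one than Tmtc2 and 7.72% a larger one than Ikzf2, against a median SE of 0.09.

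Read across all 18 conditions, the order of levels separated the lines only coarsely. Tmtc2 was highest in V449E cells at 72 hours (mean 2.05) and lowest in FI-Delta cells at 72 hours (mean -1.64). Ikzf2 was highest in V449E cells at 6 hours (mean 0.78) and Tnfsf11 in V449E cells at 72 hours (mean 1.32), and both were lowest in FI-Delta cells at 72 hours, at -1.75 and -1.28. Of the 17 steps between neighbours in that order, 1 exceeded 2 SE for Tmtc2, 4 for Ikzf2 and 0 for Tnfsf11. For Tmtc2 it was the step from V449E cells at 24 hours (mean 1.06) to GM-CSF at 6 hours (mean 0.08). For Ikzf2 they were the steps down to FI-Delta at 24 hours, GM-CSF at 48 hours, FI-Delta at 48 hours and FI-Delta at 72 hours. All other neighbours did not differ beyond their spread.

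The tested comparison of the 2 mutant lines at the same hours gives how far RNA in V449E cells stood above that in FI-Delta cells. The genes were chosen for a pattern that favours this direction at late times, so the p-values are descriptions and not independent support. The SEs were 0.31 for Tmtc2, 0.14 for Ikzf2 and 0.44 for Tnfsf11. The time at which a gene first passed therefore does not order the genes. At 48 hours all 3 genes were higher in V449E cells, where 3.69% of all probes were. Tmtc2 differed by 3.48 (SE 0.31, adjusted p = 1.13e-07), an 11.2-fold difference, Ikzf2 by 1.80 (SE 0.14, adjusted p = 3.48e-08) and Tnfsf11 by 2.24 (SE 0.44, adjusted p = 0.00141). At 24 hours Tmtc2 and Ikzf2 were higher, 2 of the 3 genes against 1.47% of all probes, by 2.39 (adjusted p = 4.95e-05) and 1.02 (adjusted p = 1.35e-04). Tnfsf11 was at 1.29 (SE 0.44, adjusted p = 0.125) there. At each of 24 and 48 hours both V449E replicates of each gene lay above both FI-Delta replicates. All 4 arrays of each of these 6 comparisons put V449E higher. The share of all probes that separate in this way is not given here, and the genes were chosen for this direction, so both are descriptions.

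At 6 and 12 hours Ikzf2 was the single gene of the 3 that passed, in a comparison in which 0.376% and 0.436% of all probes were higher in V449E cells. It differed by 0.65 (SE 0.14, adjusted p = 0.0279) at 6 hours and by 0.58 (SE 0.14, adjusted p = 0.0454) at 12 hours, and all 8 arrays put V449E higher. Tmtc2 was at 0.78 (SE 0.31, adjusted p = 0.390) and 1.13 (SE 0.31, adjusted p = 0.0808) at these times, and Tnfsf11 at 0.56 (SE 0.44, adjusted p = 0.914) and 1.04 (SE 0.44, adjusted p = 0.407). The 6-hour value of Tnfsf11 was 1.68 without FI-Delta replicate 2 and -0.55 without FI-Delta replicate 1. Both lines had their lower level in replicate 1, so leaving out 1 RNA sets unlike replicates against each other. The 4 arrays that compare the lines directly within a replicate all put V449E higher, with FI-Delta minus V449E from -0.93 to -0.11. The early Ikzf2 calls were narrow. The 6-hour call was lost without any 1 of its 4 RNAs (0.62 to 0.68, adjusted p from 0.0833 to 0.198), and the 12-hour call without V449E replicate 2 (0.41, adjusted p = 0.645) or FI-Delta replicate 1 (0.33, adjusted p = 0.616). At 72 hours, used in the choice of genes, the differences were 3.69 for Tmtc2, 2.42 for Ikzf2 and 2.60 for Tnfsf11.

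Since V449E means were the highest at 0 hours too, the differences between the lines' changes from 0 hours were also computed, after the data were seen. They have no test, because the genes were chosen on such changes. At 48 hours the change in V449E cells minus that in FI-Delta cells was 3.08 for Tmtc2 (SE 0.43), 1.56 for Ikzf2 (SE 0.20) and 1.61 for Tnfsf11 (SE 0.62). At 24 hours it was 1.99 for Tmtc2, 0.79 for Ikzf2 and 0.67 for Tnfsf11, with the same SEs. Each of these 6 values was smaller than the difference between the lines at the same time.

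**Figure D3:**
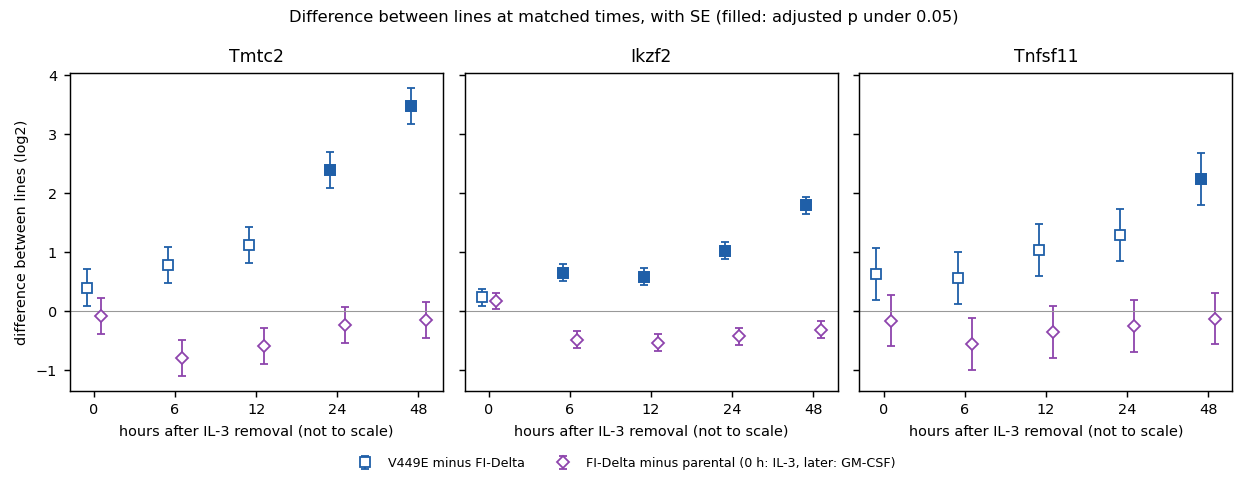
Log2 difference between lines (y axis, with SE) at 0, 6, 12, 24 and 48 hours after IL-3 removal (x axis, spaced evenly), for V449E minus FI-Delta (squares) and FI-Delta minus parental cells (diamonds; in IL-3 at 0 hours and in GM-CSF later). Filled symbols have an adjusted p under 0.05: Ikzf2 from 6 hours, Tmtc2 from 24 hours and Tnfsf11 at 48 hours, and none of the diamonds. The SEs differ between the genes, so these times do not order them.

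FI-Delta cells without factor and parental cells in GM-CSF did not differ past the threshold in any of the 3 genes. In limma 0 of 12 differences at 6, 12, 24 and 48 hours passed, and 5 of 12 had an unadjusted p under 0.05. Over all probes 0.491%, 0.307%, 0.174% and 0.289% passed at the 4 times. All 12 values had FI-Delta lower, but they reuse 3 genes and shared RNAs, and the share of all probes in that direction is not given here. Leaving out 1 RNA could turn the sign of Tnfsf11 at 6 hours (to 0.56) and 48 hours (to 0.089). It could also turn that of Tmtc2 at 48 hours (to 0.20). The direct arrays of Tnfsf11 at 48 hours ran from -0.26 to 0.09. Ikzf2 was at -0.49, -0.54, -0.43 and -0.31 (SE 0.14 each; adjusted p = 0.189, 0.121, 0.273 and 0.505). At 12 hours its 95% interval ran from -0.84 to -0.24, and at each of the 4 times both FI-Delta replicates lay below both GM-CSF replicates. How many of all probes separate in this way is not given here. Tmtc2 was at -0.80, -0.59, -0.23 and -0.16 (SE 0.31 each) and Tnfsf11 at -0.56, -0.36, -0.25 and -0.13 (SE 0.44 each). For Tnfsf11 at 6 hours the value rested on the FI-Delta replicates, with 0.56 without replicate 1 and -1.68 (adjusted p = 0.0342) without replicate 2. The replicate 2 arrays of this comparison are all of print run 2, so print run and replicate cannot be told apart here.

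The levels of the 3 genes were correlated over the 36 RNAs. Pearson's r was 0.71 for Tmtc2 with Ikzf2, 0.80 for Tmtc2 with Tnfsf11 and 0.78 for Ikzf2 with Tnfsf11. Within the 12 V449E RNAs it was -0.01, 0.56 and 0.36. These RNAs share arrays, and the genes were chosen for a common pattern, so the values are descriptions.

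The genes whose levels were most like each of the 3 were taken as the 5 symbols with the highest Pearson's r over the 36 RNAs. For Tmtc2 they were Fam20a (r = 0.92), a pseudokinase of the secretory pathway, Ptpn9 (0.91), a tyrosine phosphatase, Gucy1a1 (0.90), a subunit of soluble guanylate cyclase, Septin1 (0.90), a filament-forming GTPase, and Ankrd10 (0.89), an ankyrin repeat protein. Their changes were smaller than that of Tmtc2. At 6 hours Fam20a was at -0.17 in GM-CSF, -0.48 in V449E and -0.53 in FI-Delta cells (SE 0.15), and Ptpn9 at -0.42, -0.78 and -0.70 (SE 0.12). At 72 hours Fam20a was at -0.67, -0.02 and -0.96 and Ptpn9 at -0.64, -0.18 and -0.83 in the same order. Gucy1a1 had the deepest 6-hour value of the 5 in V449E cells, at -1.07 (SE 0.16), with 0.23 at 72 hours.

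For Ikzf2 the 5 were H2-Aa (r = 0.95), an MHC class II chain, Sod1 (0.95), the cytosolic superoxide dismutase, Rab27b (0.95), a GTPase of secretory granules, Ppp1r14bl (0.94) and Fcer1a (0.94), the IgE-binding chain of the mast cell receptor. H2-Aa was at -0.86 in GM-CSF, -0.06 in V449E and -1.24 in FI-Delta cells at 72 hours (SE 0.18). Rab27b was at -2.05, 0.12 and -2.28 (SE 0.25), a wider change than that of Ikzf2 in GM-CSF. Like Ikzf2, H2-Aa and Fcer1a stood above 0 hours at 6 hours in GM-CSF, at 0.40 and 0.41. For Tnfsf11 the 5 were 4932438H23Rik (r = 0.92), Txk (0.90), a TEC family tyrosine kinase, Nrip1 (0.90), a nuclear receptor corepressor, Fam20a (0.90) and Rab27b (0.90). Fam20a was thus named for both Tmtc2 and Tnfsf11, and Rab27b for both Ikzf2 and Tnfsf11. With Spearman's rho in place of Pearson's r, 1, 2 and 3 of the 5 stayed for Tmtc2, Ikzf2 and Tnfsf11, so the names depend on the measure.

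**Figure D4:**
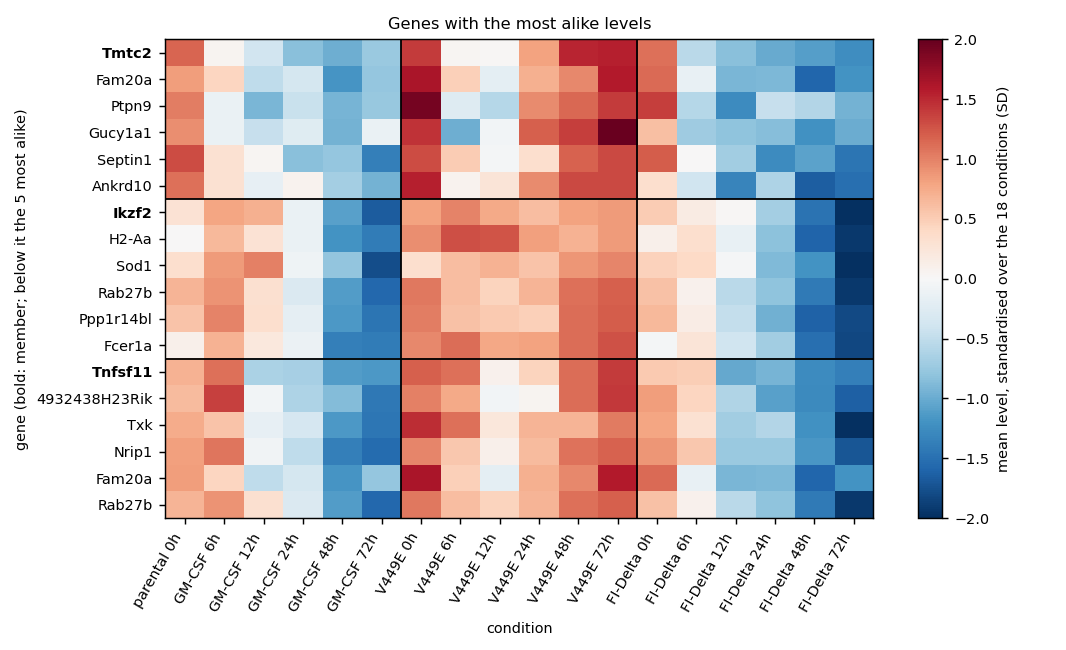
Mean level in each of the 18 conditions (columns, grouped by line) of the 3 genes (bold) and the 5 symbols most like each (rows), standardised to mean 0 and SD 1 within a row. Red is above and blue below the row's mean; the 3 blocks share the blue 48 and 72-hour columns of GM-CSF and FI-Delta cells, and the V449E columns at 6 and 12 hours are near white for Tmtc2 and red for Ikzf2.

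Among the relatives of the 3 genes, 1 of 8 measured passed the threshold in any change from 0 hours. Tmtc3 and Tmtc4 passed in limma in 0 of 15 changes from 0 hours, with an unadjusted p under 0.05 in 2 and 0, and their values ran from -0.09 to 0.17 and from -0.13 to 0.04. Tmtc1 had no matched probe. In the Ikaros family, Ikzf4, which encodes Eos, was lower in 8 of 15. It fell by 0.73 on the log2 scale at 6 hours, 0.87 at 12 hours, 0.54 at 24 hours, 0.71 at 48 hours and 1.08 at 72 hours in FI-Delta cells (SE 0.12 each; adjusted p from 3.86e-06 to 0.0213). In V449E cells it fell by 0.56 at 6 hours (adjusted p = 0.0221) and by 0.85 at 12 hours (adjusted p = 0.00120), and was at -0.22, -0.11 and 0.08 afterwards. In GM-CSF it fell at 72 hours, by 0.71 on the log2 scale (adjusted p = 8.74e-04). Of all symbols 0.722%, 4.34%, 0.702%, 2.31% and 10.7% were lower in FI-Delta cells at the 5 times, 0.470% and 0.894% in V449E cells at 6 and 12 hours, and 3.41% in GM-CSF at 72 hours. An early fall in V449E cells with values near 0 at 48 and 72 hours was thus seen for Ikzf4, a relative of Ikzf2, whose own V449E values are given above.

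Ikzf1, which encodes Ikaros, Ikzf3, which encodes Aiolos, and Ikzf5, which encodes Pegasus, passed in 0 of 15 each in limma, with an unadjusted p under 0.05 in 6, 0 and 3. Ikzf1 ran from -0.01 to 0.54 with a median SE of 0.17 and a smallest adjusted p of 0.0724. The RANKL receptor Tnfrsf11a ran from -0.10 to 0.10 (SE 0.11) and the decoy receptor Tnfrsf11b from -0.12 to 0.12 (SE 0.08), and both passed in 0 of 15, with an unadjusted p under 0.05 in 0.

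**Figure D5:**
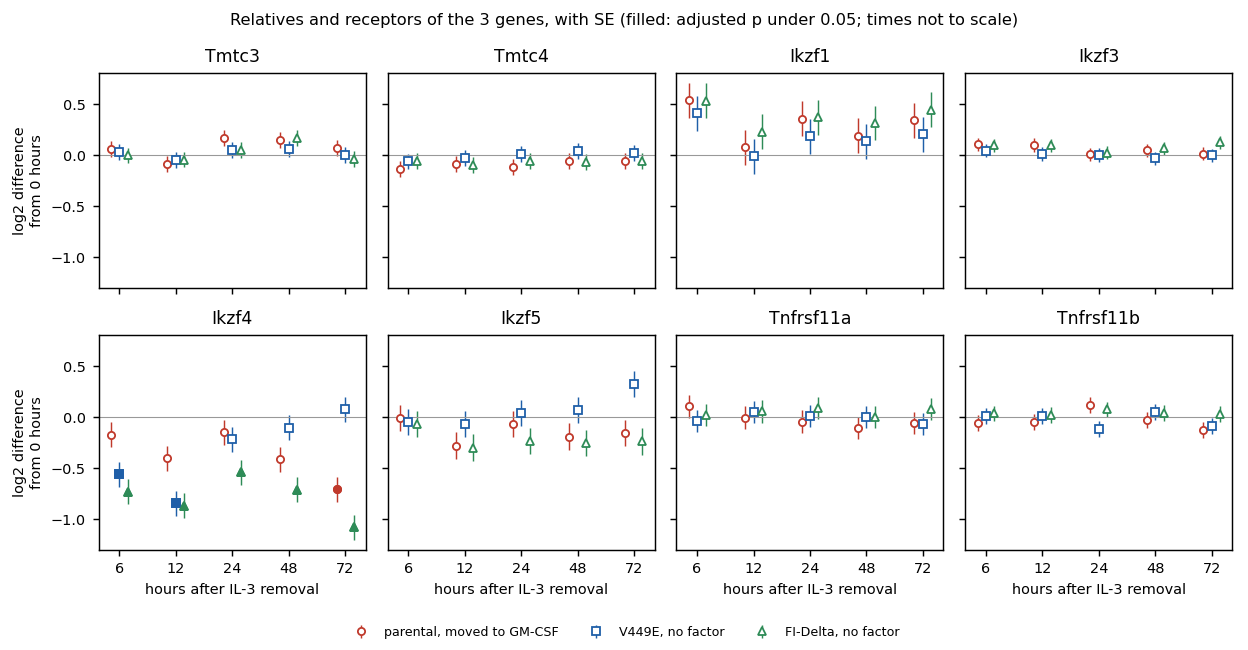
Log2 difference from 0 hours (y axis, with SE) of 6 family relatives and the 2 RANKL receptors at 6, 12, 24, 48 and 72 hours after IL-3 removal (x axis, spaced evenly) in the 3 lines. Filled symbols have an adjusted p under 0.05, and all of these are of Ikzf4, whose lowest value was -1.08, in FI-Delta cells at 72 hours.

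Lists of genes around the 3 proteins were counted in 9 changes from 0 hours (6, 24 and 72 hours in each line), with the 3 genes left out. Over 8 lists and these 9 changes, 66 of 1368 tests passed. Of all symbols 0.590%, 1.46% and 7.23% passed in GM-CSF at 6, 24 and 72 hours, 1.04%, 1.50% and 0% in V449E cells, and 1.22%, 2.01% and 18.5% in FI-Delta cells. In V449E cells at 72 hours 0 of 152 passed in limma, and 7 had an unadjusted p under 0.05. In FI-Delta cells at 72 hours 7.85% of all symbols were higher.

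Around Tmtc2, 1 of 13 measured genes of TMTC and O-mannosylation was higher and 1 lower in FI-Delta cells at 72 hours (list median -0.09, all symbols -0.00). Of all symbols 7.85% were higher and 10.7% lower in that change, so the small counts given here are not read as a trait of these lists. Among 34 cadherins and protocadherins 1 was higher and 2 lower there (median -0.01). Cdh17, liver-intestine cadherin, was at -1.38 (SE 0.19, adjusted p = 4.52e-05) there and at -0.75 (adjusted p = 0.0176) in GM-CSF. Of 16 genes of endoplasmic reticulum calcium handling, to which TMTC2 has been linked, 3 were lower (10.7% of all symbols, list median 0.06). Those were Calr, Canx and Pdia3, chaperones of the same compartment, named after their values were seen.

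Around Ikzf2, 1 of 21 genes of the NuRD complex and other Ikaros partners was higher and 5 lower in FI-Delta cells at 72 hours (median -0.11). In GM-CSF 1 was higher and 3 lower (median -0.05, all symbols 0.00). Of all symbols 7.85% were higher and 10.7% lower in FI-Delta cells at 72 hours, and 3.82% and 3.41% in GM-CSF. Smarcc1, a subunit of the SWI/SNF remodeller, was at -0.93 (SE 0.10) and -0.56 (SE 0.10) in these, and was named after its values were seen. No gene of this list changed by at least 1 on the log2 scale and passed.

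Around Tnfsf11, few genes of RANK signalling passed at 6 hours, all of them higher. Of 26 measured, 2 were higher in GM-CSF (0.378% of all symbols), 3 in V449E (0.570%) and 3 in FI-Delta cells (0.497%), and 0 were lower. Relb and Nfkb2, the subunits of non-canonical NF-kB, were among them in each line, and were named after their values were seen. Relb was at 0.60 in GM-CSF, 0.77 in V449E and 0.62 in FI-Delta cells (SE 0.13 each), and Nfkb2 at 0.62, 0.97 and 0.65 (SE 0.13 each). The list median at 6 hours was 0.18, 0.15 and 0.11 in these lines, against 0.00 for all symbols in each.

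Of 23 osteoclast genes that RANKL induces or that shape the response, 2 were higher and 0 lower in FI-Delta cells at 72 hours (median 0.11). That is near the 7.85% of all symbols that were higher. The 2 included Fos, a subunit of AP-1, at 1.97 (SE 0.24, adjusted p = 7.59e-06). Tcirg1, a subunit of the proton pump of osteoclasts, was at 1.33 (SE 0.21, adjusted p = 0.00186) in V449E cells at 6 hours. Among 15 other ligands of the tumour necrosis factor family 2 were higher in FI-Delta cells at 72 hours (7.85% of all symbols) and 1 in GM-CSF (3.82%), and 0 were lower. Tnf itself was at 0.57 (SE 0.18, adjusted p = 0.0270) and 0.62 (SE 0.18, adjusted p = 0.0377), the opposite direction from Tnfsf11, and was named after its values were seen.

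At 72 hours markers of other cell types differed from 0 hours in the 2 lines that had lost the 3 RNAs, and their part in the loss was not tested. At 6 hours 0 mast cell, macrophage or late granule markers passed in limma in either line. Of all symbols only 0.590% passed then in GM-CSF and 1.22% in FI-Delta cells, so lists this short could show few calls. Those with an unadjusted p under 0.05 there were 3 of 15, 3 of 19 and 2 of 14 in GM-CSF and 2 of 15, 4 of 19 and 0 of 14 in FI-Delta cells. At 24 hours 1 mast cell marker was lower and 4 macrophage markers were higher in GM-CSF, where 1.46% of all symbols passed. In FI-Delta cells 0 of the 3 lists passed, against 2.01% of all symbols, and 5, 8 and 4 had an unadjusted p under 0.05. V449E cells, too, had higher macrophage markers early. Of 19, 1 was higher at 6 hours (0.570% of all symbols) and 3 at 24 hours, where 1.50% of all symbols passed. In that line 0 mast cell or late granule markers passed at 6 or 24 hours. In FI-Delta cells at 72 hours 6 of 15 mast cell and basophil markers were lower (10.7% of all symbols) and 0 higher (median -0.10). Among the lower ones were Cpa3, a mast cell carboxypeptidase, at -2.87 (SE 0.24) and Fcer1a at -1.24 (SE 0.14). In GM-CSF 4 of 15 were lower (3.41% of all symbols, median -0.15). Macrophage markers were higher for 9 of 19 in GM-CSF (3.82% of all symbols, median 0.38) and 6 of 19 in FI-Delta cells (7.85% of all symbols, median 0.35). In GM-CSF the chemokine receptor Ccr2 was at 1.62 (SE 0.19) and cathepsin S, Ctss, at 1.54 (SE 0.21). Late granule markers were higher for 3 of 14 in GM-CSF (3.82% of all symbols, median 0.30) and 7 of 14 in FI-Delta cells (7.85%, median 0.82). Mmp8, the neutrophil collagenase, was at 2.20 (SE 0.22) in GM-CSF and Ltf, lactoferrin, at 2.68 (SE 0.61) in FI-Delta cells. In V449E cells at 72 hours 0 of 92 markers over 6 lists passed in limma, as did 0% of all symbols, and 8 had an unadjusted p under 0.05.

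T cells and stromal cells are known sources of RANKL. Of 19 T cell markers 3 were higher and 1 lower in FI-Delta cells at 72 hours (median -0.04), a share near that of all symbols, 1 was lower in GM-CSF (median -0.05), and the list medians at 6, 24 and 72 hours ran from -0.05 to 0.03 over the 3 lines. Cd3d, a T cell receptor chain, was at 0.76 (SE 0.15) in FI-Delta cells at 72 hours and Il7r, the IL-7 receptor, at 0.92 (SE 0.21) in V449E cells at 24 hours. In FI-Delta cells at 72 hours 7.85% of all symbols were higher and 10.7% lower. Of 13 osteoblast and stromal markers 1 was higher and 1 lower there (median 0.04). Dcn, decorin, was at 0.39 (SE 0.10) and Pdgfrb, a receptor of stromal cells, at -0.57 (SE 0.14). Of 12 erythroid and megakaryocyte markers 2 were higher and 2 lower there, with Itga2b, a platelet integrin, at -1.15 (SE 0.15) and Vwf, von Willebrand factor, at 0.76 (SE 0.18).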

How the data were processed

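The arrays compared RNA pairs labelled with Cy5 (channel 1) and Cy3, per the labels. The deposited value of a spot was taken to be a log2 ratio that the authors had normalised; they also reordered spots so that the print runs match, per the labels. The submitters' processing notes name limma without a version. The log base and the direction are not given in the sources used here; log2 of Cy5 over Cy3 is likely, since limma writes that ratio. Signal over background is unknown. In the main fit each RNA level counted equally whatever its number of arrays, so an SE reflects the spread between replicate RNAs.

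Dye-swap pairs were averaged with signs turned, and least squares within each replicate gave 36 RNA levels. Contrasts were tested with limma 3.58.1 (lmFit, eBayes; R 4.3.3), with replicate number as a block, 2-sided, adjusted by Benjamini-Hochberg over 21797 probes (1243 controls left out) within a contrast, at 0.05. Probes of 1 symbol were averaged for lists and relatives. The fit was tested on simulated data. An SE is that of the limma contrast, and a difference is 1 condition minus another, each the mean of 2 replicates.

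The genes, lists and tests were chosen with earlier results of these data known. Named are the 3 genes, the 5 symbols most like each, the family relatives and receptors, list genes that passed with a change of at least 1 on the log2 scale, and the 2 largest called changes of each marker list. Alternatives were no block, direct arrays only, arrays centred and scaled, print run 1 only, weights by arrays, a fit on pair means, and leaving out each RNA.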

Additional observations from a re-analysis of the deposited data

Results flagged for a closer look

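Changes from 0 hours had opposite signs in 2 lines, in both replicates of each, in 7 cases. None was tested, because the genes were chosen on changes of this kind. For Tmtc2 at 48 hours V449E cells were at 0.17 (SE 0.31), which is within its SE of 0, with direct arrays from -0.51 to 0.52, and the gap was 3.08 to FI-Delta cells (-2.92) and 3.00 to GM-CSF (-2.83). For Tnfsf11 at 72 hours V449E cells were at 0.20 (SE 0.44), also within its SE of 0, and the gap was 1.97 to FI-Delta cells (-1.77) and 1.93 to GM-CSF (-1.73). In these 4 cases the gap lay in the line that fell.

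Ikzf2 was above its 0 hours in GM-CSF and below it in FI-Delta cells at 6 hours (0.39 and -0.26, SE 0.14 each) and at 12 hours (0.33 and -0.38, SE 0.14 each). The FI-Delta minus GM-CSF gap of these changes was -0.66 and -0.71. At 6 hours Ikzf2 in V449E cells was at 0.16 (SE 0.14), a gap of 0.42 to FI-Delta cells. Its replicate 1 in V449E cells was at 0.80 at 0 and at 6 hours, and the direct arrays ran from -0.10 to 0.41. In FI-Delta cells at 12 hours the direct arrays ran from -1.09 to 0.12, with replicate 2 at 0.25 against 0.32 at 0 hours.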

How the results depend on the processing

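Leaving out the replicate block changed no call of the 3 genes: V449E minus FI-Delta at 48 hours stayed at 3.48 for Tmtc2, 1.80 for Ikzf2 and 2.24 for Tnfsf11. These values are the same by construction, because levels are set against the average of each replicate number. For the same reason whether the numbers pair the RNAs could not be checked. The 66 list calls stayed within 1.5 times under every alternative run.

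With arrays centred and scaled, the 72-hour change in FI-Delta cells was -2.30 for Tmtc2, -1.68 for Ikzf2 and -1.33 for Tnfsf11, and that of Tnfsf11 in GM-CSF -1.49. Ikzf2 in V449E minus FI-Delta no longer passed at 6 hours (0.66, adjusted p = 0.0552) or 12 hours (0.55, adjusted p = 0.140). It was also lost on print run 1 alone (0.68, adjusted p = 0.0776, and 0.60, adjusted p = 0.114) and with weights (0.65, adjusted p = 0.162, and 0.58, adjusted p = 0.215). Print run 1 alone gave Tnfsf11 -1.33 in GM-CSF and -1.83 in FI-Delta cells at 72 hours. Weights let Ikzf2 in V449E minus parental cells pass at 0 hours (0.40, adjusted p = 0.00872). Direct arrays only gave 72-hour changes of -1.99 (Tmtc2, GM-CSF), -3.48, -2.34 and -1.87 (Tmtc2, Ikzf2 and Tnfsf11, FI-Delta) and -1.48 (Tnfsf11, GM-CSF), and Tnfsf11 in V449E minus FI-Delta passed at 24 hours (1.36, adjusted p = 0.0407). The cause of these shifts was not tested.

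The fit on pair means, without replicate block, uses all 58 pairs as samples. These pairs reuse the same 36 RNAs, so repeats of an RNA count as independent samples. Its p-values therefore overstate the evidence, and its added calls are not read as results. That fit added calls for Tmtc2 in V449E minus FI-Delta at 12 hours (1.13, adjusted p = 0.00465) and Tnfsf11 at 12 and 24 hours (1.04, adjusted p = 0.0290, and 1.29, adjusted p = 0.00227). It also added Ikzf2 in V449E minus parental cells (0.40, adjusted p = 2.07e-04), Tnfsf11 in FI-Delta minus V449E cells at 0 hours (-0.63, adjusted p = 0.0304) and Ikzf2 in FI-Delta minus GM-CSF at 6, 12 and 24 hours (-0.49, -0.54 and -0.43, adjusted p = 0.0213, 0.00859 and 0.0444).

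The differences of the changes from 0 hours, computed after the data were seen and not tested, were for V449E minus FI-Delta at 6, 12, 24 and 48 hours 0.38, 0.73, 1.99 and 3.08 (Tmtc2), 0.42, 0.35, 0.79 and 1.56 (Ikzf2) and -0.064, 0.41, 0.67 and 1.61 (Tnfsf11). For FI-Delta minus GM-CSF they were -0.66, -0.71, -0.60 and -0.49 for Ikzf2, and Tnfsf11 turned at 48 hours (0.033).

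Leaving out each RNA in turn gave 72-hour changes of -3.28 to -2.92 (Tmtc2, FI-Delta), -2.17 to -1.29 (Tnfsf11, GM-CSF) and -1.85 to -1.69 (Tnfsf11, FI-Delta). In V449E minus FI-Delta, Ikzf2 ranged from 0.62 to 0.68 at 6 hours and from 0.33 to 0.83 at 12 hours. Tnfsf11 at 6 hours ranged from -0.55 to 1.68, being -0.13 without V449E replicate 2. FI-Delta minus parental cells at 0 hours ranged from -0.26 to 0.11 (Tmtc2), -0.012 to 0.35 (Ikzf2) and -0.60 to 0.28 (Tnfsf11). FI-Delta minus GM-CSF ranged from -1.68 to 0.56 at 6 hours and -0.34 to 0.089 at 48 hours for Tnfsf11, and from -0.51 to 0.20 at 48 hours for Tmtc2. A lone remaining sample is assumed to vary like the others. Of these, the calls lost were those of Ikzf2 at 6 and 12 hours.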
